A study of Arabidopsis thaliana with 29 samples.

Results

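The transcriptome of *clf-29swn-21* seedlings, labelled as mutant in both vegetative histone methyltransferases of Polycomb repressive complex 2 (PRC2), was set against that of *atring1a,b* seedlings, which carry mutations in the RING1 proteins of Polycomb repressive complex 1 (PRC1). The members were all RNA-seq libraries whose labels give either genotype, which were 2 of *clf-29swn-21* and 2 of *atring1a,b*, or 4 of the 29 samples of the series. The study as a whole profiled transcripts and trimethylation of lysine 27 of histone H3 (H3K27me3) in seedlings of several Polycomb mutants of *Arabidopsis thaliana*. *clf-29swn-21* combines the *clf-29* and *swn-21* alleles of *CURLY LEAF* (*CLF*) and *SWINGER* (*SWN*), *atring1a,b* combines mutations of *AtRING1A* and *AtRING1B*, and the 2 libraries of wild type Col-0, the background of both mutants, gave the level without either loss. No plant was treated, all grew in long days for 2 weeks, and the labels give 21 °C for the replicate 1 libraries and 22 °C for the replicate 2 libraries of these genotypes. The labels describe seedlings without roots for all 3 genotypes, whereas the methods of the study give Murashige and Skoog medium and a harvest of whole plants for *clf-29swn-21*, and soil for the other genotypes. Genotype, growth medium and harvested organs therefore cannot be told apart between the mutants, nor can replicate number and temperature.

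PRC2 places H3K27me3 on the chromatin of genes that are to stay silent, and in vegetative tissue its catalytic subunit is CLF or SWN. PRC1 of plants contains RING1 and BMI1 proteins, which monoubiquitinate histone H2A, and acts with partners such as EMBRYONIC FLOWER1 (EMF1) and LIKE HETEROCHROMATIN PROTEIN1 (LHP1). Both complexes are known for keeping flower development genes and seed maturation genes silent in seedlings. Seed maturation is directed by the transcription factors LEAFY COTYLEDON1 (LEC1), LEC2, FUSCA3 (FUS3) and ABSCISIC ACID INSENSITIVE3 (ABI3), and ends with the deposition of storage proteins and oil and the synthesis of late embryogenesis abundant (LEA) proteins, which protect cells during drying.

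The libraries held 27948398 and 17277027 counts on genes in *clf-29swn-21*, 36119850 and 20662908 in *atring1a,b* and 35517323 and 21394358 in Col-0. Levels below are CPM, which are counts scaled to library size, here corrected by the trimmed mean of M values, listed in the order replicate 1, replicate 2. They are not corrected for gene length and are compared between libraries, not between genes. Between replicates, 7.77% of the 22060 genes tested differed by more than 2-fold between the *clf-29swn-21* libraries, 9.95% between the *atring1a,b* libraries and 23.4% between the Col-0 libraries. Each *clf-29swn-21* library differed by more than 2-fold from each *atring1a,b* library at 31.4% to 32.8% of genes. The study states biological replicates for *atring1a,b*. No source used here says whether the *clf-29swn-21* libraries came from separate cultures. The p-values therefore measure only a spread between libraries, and it was estimated over all 14 RNA-seq libraries, not from these mutants alone.

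The mutated genes were examined first. *CLF* (AT2G23380), the catalytic subunit removed by *clf-29*, had 1.55 and 2.41 CPM in *clf-29swn-21* and 39.8 and 27.3 CPM in *atring1a,b*, with 38.9 and 29.2 CPM in Col-0. Both *clf-29swn-21* libraries lay below those of *atring1a,b* and Col-0, and the *clf-29* single mutant was lower still with 0.719 and 0.441 CPM. The log2 fold change over *atring1a,b* was -4.1 ± 0.34 (SE, n = 2 each, edgeR's quasi-likelihood test, Benjamini-Hochberg adjusted p = 0.000158). *SWN* (AT4G02020), the second catalytic subunit, had 118 and 107 CPM in *clf-29swn-21* against 58.1 and 49.0 CPM in *atring1a,b* and 48.7 and 71.7 CPM in Col-0. Its transcript count was thus higher, not lower, in the library labelled *clf-29swn-21*, as it also was in the *swn-21* single mutant with 91.6 and 89.4 CPM, and a count over the whole gene does not show whether the transcript is intact. The higher call of *SWN* (log2 fold change 1.07 ± 0.21, edgeR adjusted p = 0.00576) was lost without *atring1a,b* replicate 2, where the fold change was 0.92 and the adjusted p was 0.0505, and without *clf-29swn-21* replicate 1, where the fold change was 0.99.

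*RING1B* (AT1G03770), a ubiquitin ligase of PRC1, had 21.1 and 29.1 CPM in *clf-29swn-21* and 1.64 and 0.690 CPM in *atring1a,b*, against 8.14 and 15.7 CPM in Col-0, and both *atring1a,b* libraries were the lowest. *RING1A* (AT5G44280) went the other way, with 14.2 and 24.3 CPM in *clf-29swn-21* and 601 and 828 CPM in *atring1a,b*, against 14.4 and 18.7 CPM in Col-0. Its counts in the library labelled *atring1a,b* were therefore above those of Col-0, and a count over the whole gene does not show whether the transcript is intact. The study states that it checked the genotype of each sample with the RNA-seq data. Its supplement describes a mutant gene with little expression of the first exons and later exons driven by an inserted T-DNA. The text available here does not name that gene, and counts per exon were not examined. The neighbour AT5G44270, which encodes a TPX2 family protein and lies at chr5:17833636-17835817 on the + strand, overlaps *RING1A* at chr5:17835810-17839303 on the - strand by 8 bp (TAIR10.1 annotation). It had 4 and 1 counts in *clf-29swn-21* and 822 and 368 counts in *atring1a,b*, against 1 and 2 counts in Col-0. No source used here states strand-specific counting, so reads of *RING1A* and of this neighbour cannot be told apart in the overlap. The overlap is only 8 bp long, and from which transcript the other counts of AT5G44270 in *atring1a,b* came was not tested.

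A gene was called higher or lower in *clf-29swn-21* where the adjusted p was under 0.05 and the log2 fold change was beyond 1 in either direction. By this rule 2444 genes, or 11.1% of those tested, were higher in *clf-29swn-21* than in *atring1a,b*, and 2581 genes, or 11.7%, were lower. With an unadjusted p under 0.05 from the same edgeR test and the same fold change, there were 3141 higher genes (14.2%) and 3249 lower genes (14.7%). The median log2 fold change of all genes tested was 0.046. Against Col-0, *clf-29swn-21* had 3051 higher genes (13.8%) and 2877 lower genes (13.0%), and *atring1a,b* had 273 higher genes (1.24%) and 30 lower genes (0.136%), and both of these contrasts share the Col-0 libraries. The direct counts depended on each library: without *clf-29swn-21* replicate 1 there were 1438 higher and 1540 lower genes, without *clf-29swn-21* replicate 2 there were 1897 and 1933, without *atring1a,b* replicate 1 there were 1490 and 2108, and without *atring1a,b* replicate 2 there were 1290 and 2053.

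Many of the higher genes were at or near 0 in *atring1a,b*. Of the genes tested, 174 had at least 1 CPM in both *clf-29swn-21* libraries and at most 3 counts over both *atring1a,b* libraries, and 145 of them also had at most 3 counts over both Col-0 libraries. The opposite pattern, at least 1 CPM in both *atring1a,b* libraries and at most 3 counts over both *clf-29swn-21* libraries, was found for 24 genes, of which 7 had at most 3 counts in Col-0. Folds against a genotype with 0 counts in both libraries are given below as lower bounds, taken against 3 counts over the 2 libraries together, and folds against 1 to 3 counts are given with an exact 95% counting interval. These bounds and intervals cover counting error only.

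The 10 largest increases included several small proteins of seeds. *LCR67* (AT1G75830), which encodes a low-molecular-weight cysteine-rich protein, had 222 and 378 CPM in *clf-29swn-21* and 0 in both *atring1a,b* libraries, and was at least 5439-fold higher. *EM6* (AT2G40170), a LEA protein, had 160 and 284 CPM in *clf-29swn-21* and 0.0264 and 0 CPM in *atring1a,b*, a ratio of 12014 with an interval of 2156 to 474590. AT5G38160 and AT5G55410 belong to the superfamily of lipid-transfer proteins and 2S albumins, and AT5G38160 had 41.3 and 115 CPM in *clf-29swn-21* against 0 in *atring1a,b*, at least 1339-fold higher. AT1G14950 and AT1G14940, both annotated as polyketide cyclase and lipid transport proteins, are neighbours on chromosome 1, and they were at least 2392-fold and 1167-fold higher, although reads of such related copies may be shared between them. AT3G54580, an extensin-like cell wall protein, was called on unequal libraries, with 68.1 CPM in *clf-29swn-21* replicate 1, 1.71 CPM in replicate 2 and 0 in *atring1a,b*. Its call was lost without *atring1a,b* replicate 1 (adjusted p = 0.103) and without *atring1a,b* replicate 2 (adjusted p = 0.0887).

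Among the 10 largest decreases, *COR15B* (AT2G42530), a cold-regulated protein of the chloroplast, had 0.614 and 0.642 CPM in *clf-29swn-21* against 83.4 and 83.6 CPM in *atring1a,b* and 61.9 and 204 CPM in Col-0. All 4 mutant libraries of *COR15B* were tight within their genotype, and the log2 fold change was -7.05 ± 0.61 (edgeR adjusted p = 0.000182). *PKR2* (AT4G31900), a chromatin remodelling factor related to PICKLE, had 0.355 and 0.161 CPM in *clf-29swn-21*, 32.1 and 13.8 CPM in *atring1a,b* and 0.176 and 0.0491 CPM in Col-0, so that it was high in *atring1a,b* only among these 3 genotypes (log2 fold change -6.38 ± 0.76, edgeR adjusted p = 0.000576). AT1G74140, a rhomboid-related protease, showed the same order, with 3 and 0 counts in *clf-29swn-21*, 866 and 265 counts in *atring1a,b* and 2 counts over both Col-0 libraries. The receptor-like kinase gene *CRK41* had 0.0323 and 0.910 CPM in *clf-29swn-21* against 143 and 15.1 CPM in *atring1a,b*, and its call was lost without *clf-29swn-21* replicate 1 (adjusted p = 0.0878) and without *atring1a,b* replicate 1 (adjusted p = 0.0579).

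To describe development by function, 19 lists of genes with known roles were examined, and the range of their members is shown in the plot of fold changes by list.

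**Figure D1:**
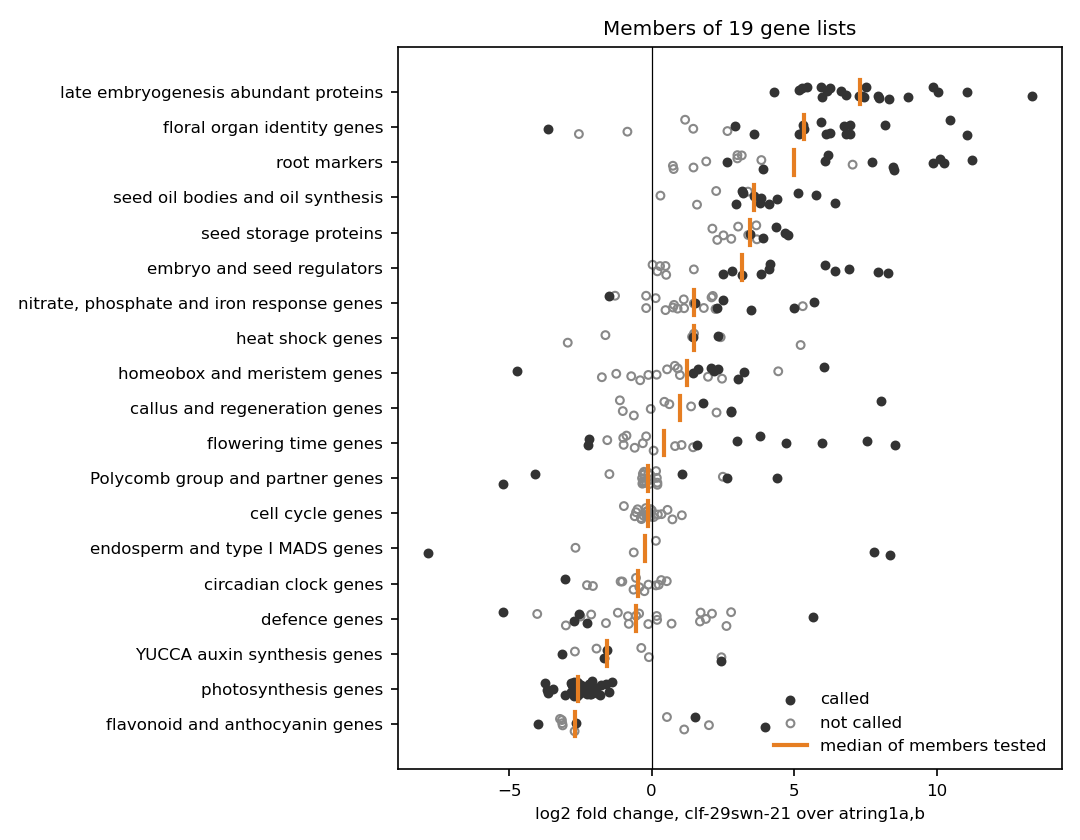
Each point is 1 gene of a list that passed the filter on low counts, placed by its log2 fold change of clf-29swn-21 over atring1a,b on the horizontal axis, with filled points for called genes, open points for genes not called and a bar at the median of each list. The LEA list has the highest median at 7.32 and all 46 photosynthesis genes lie below 0, while the fold changes of genes at 0 in 1 genotype are fitted values and not bounds.

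Floral organ identity genes were mostly higher in *clf-29swn-21* and near Col-0 levels in *atring1a,b*. Of 22 members, 21 passed the filter on low counts, 15 were called higher, 1 was called lower and 5 were not called, beside 11.1% higher and 11.7% lower over all genes. The median log2 fold change was 5.34, or 5.30 with genes at 0 in *atring1a,b* placed at their bound, against 0.046 over all genes. The summed level of the list was 464.8 and 673.5 CPM in *clf-29swn-21*, 32.1 and 25.4 CPM in *atring1a,b* and 31.6 and 20.1 CPM in Col-0. The *clf-29swn-21* libraries lay above both *atring1a,b* libraries for 19 of the 22 members and below them for 3, whereas over all genes tested such a separation was found for 36.0% above and 30.6% below. In bulk seedlings, fewer cells of a type and less RNA per cell cannot be told apart.

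**Figure D2:**
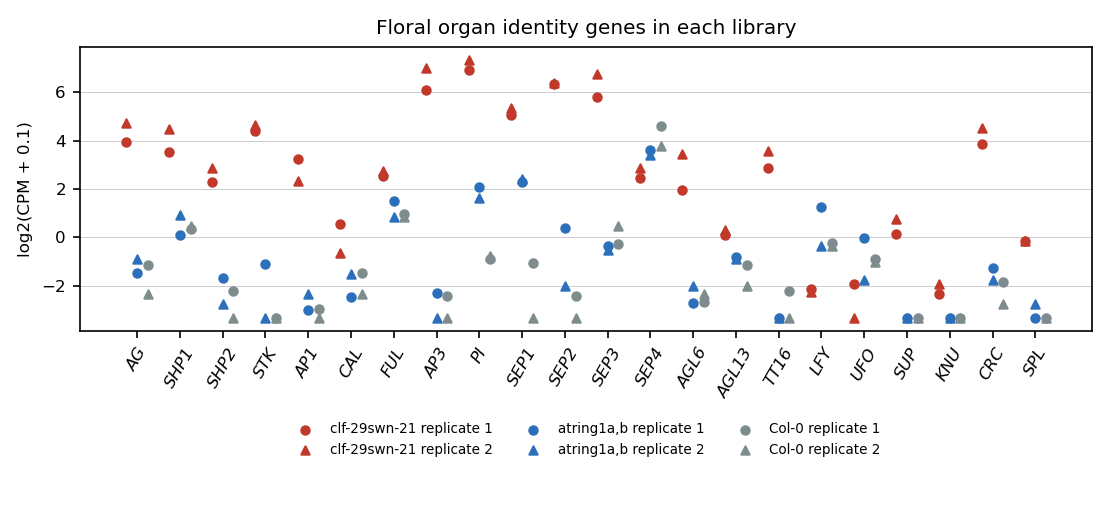
Levels of the 22 floral organ identity genes as log2(CPM + 0.1) on the vertical axis, 1 column per gene, in clf-29swn-21, atring1a,b and Col-0, with circles for replicate 1 and triangles for replicate 2. For genes such as AP3, SEP2 and STK both clf-29swn-21 points lie above the atring1a,b and Col-0 points, while for LFY they lie below them.

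Of the B class genes, which specify petals and stamens, *APETALA3* (*AP3*, AT3G54340) had 69.3 and 129 CPM in *clf-29swn-21* and 0.106 and 0 CPM in *atring1a,b*, against 0.0878 and 0 CPM in Col-0. *PISTILLATA* (*PI*, AT5G20240), its partner, had 121 and 162 CPM in *clf-29swn-21*, 4.2 and 2.96 CPM in *atring1a,b* and 0.439 and 0.491 CPM in Col-0. The 3 genotypes of *PI* did not overlap: *clf-29swn-21* was the highest, *atring1a,b* intermediate and Col-0 the lowest. The log2 fold change of *PI* was 5.30 ± 0.28 over *atring1a,b* (edgeR adjusted p = 5.38e-05), and that of *atring1a,b* over Col-0 was 2.95 ± 0.28 (edgeR adjusted p = 0.0022).

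The C class gene *AGAMOUS* (*AG*, AT4G18960), which specifies stamens and carpels and ends the flower meristem, had 15.5 and 26.7 CPM in *clf-29swn-21* and 0.264 and 0.444 CPM in *atring1a,b*, against 0.351 and 0.0983 CPM in Col-0. Its log2 fold change was 5.94 ± 0.53 (edgeR adjusted p = 0.000208), and the *atring1a,b* libraries overlapped Col-0. The ovule identity gene *SEEDSTICK* (*STK*) had 21.2 and 25 CPM in *clf-29swn-21* and 0.370 and 0 CPM in *atring1a,b*. *SHATTERPROOF1* (*SHP1*), which patterns the fruit, had 11.4 and 22.2 CPM in *clf-29swn-21* and 0.977 and 1.82 CPM in *atring1a,b*. Its relative *SHP2* and the carpel gene *CRABS CLAW* (*CRC*) separated the mutants in the same direction, by log2 5.34 ± 0.93 for *SHP2* and log2 6.12 ± 1.09 for *CRC* (edgeR adjusted p = 0.00309 for *SHP2* and 0.00456 for *CRC*).

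The SEPALLATA factors bind DNA with the B and C class proteins. *SEP3* had 55.6 and 108 CPM in *clf-29swn-21* and 0.686 and 0.592 CPM in *atring1a,b*, and *SEP2* had 81.9 and 83.0 CPM in *clf-29swn-21* and 1.21 and 0.148 CPM in *atring1a,b*. *SEP1* had 33.2 and 41.3 CPM in *clf-29swn-21*, 4.75 and 5.18 CPM in *atring1a,b* and 0.381 and 0 CPM in Col-0, again with *atring1a,b* between the others. The log2 fold change of *SEP1* was 2.91 ± 0.80 (edgeR adjusted p = 0.0244), and its call was lost when any 1 of the 4 libraries was left out, with an adjusted p of 0.0706 without *clf-29swn-21* replicate 1, 0.0955 without *clf-29swn-21* replicate 2, 0.127 without *atring1a,b* replicate 1 and 0.110 without *atring1a,b* replicate 2. The A class gene *APETALA1* (*AP1*) had 386 counts over both *clf-29swn-21* libraries and 3 over both *atring1a,b* libraries, a ratio of 151 with an interval of 51.2 to 734. *TT16*, a B-sister gene of the seed coat, was at least 174-fold higher, with 0 counts in *atring1a,b*.

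*LEAFY* (*LFY*, AT5G61850), which switches on organ identity genes in the flower meristem, had 0.129 and 0.107 CPM in *clf-29swn-21*, 2.32 and 0.690 CPM in *atring1a,b* and 0.761 and 0.688 CPM in Col-0, and was the only member called lower (log2 fold change -3.63 ± 0.76, edgeR adjusted p = 0.00749). Without *clf-29swn-21* replicate 1 the adjusted p of *LFY* was 0.0557. *UFO*, a cofactor of LFY, had 0.162 and 0 CPM in *clf-29swn-21* and 0.897 and 0.197 CPM in *atring1a,b* and was not called (edgeR adjusted p = 0.072, 95% interval of the log2 fold change -4.67 to -0.44). *FRUITFULL* (*FUL*) had 5.75 and 6.58 CPM in *clf-29swn-21* and 2.77 and 1.68 CPM in *atring1a,b* and was not called (edgeR adjusted p = 0.0894, 95% interval 0.17 to 2.75).

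Of 21 flowering time genes 20 were tested, 7 were called higher and 2 lower, beside 11.1% higher and 11.7% lower over all genes, so the lower count was near the share of all genes. The median log2 fold change was 0.44. *FLOWERING LOCUS C* (*FLC*, AT5G10140), a MADS-box repressor of flowering that PRC2 silences in the cold, had 105 and 140 CPM in *clf-29swn-21*, 7.44 and 1.77 CPM in *atring1a,b* and 10.7 and 28.4 CPM in Col-0. Both *clf-29swn-21* libraries of *FLC* were above Col-0 and both *atring1a,b* libraries were below it, with a log2 fold change of 4.71 ± 0.71 between the mutants (edgeR adjusted p = 0.00163). *SOC1* (AT2G45660), a floral integrator, had 9.73 and 10.3 CPM in *clf-29swn-21* against 45.2 and 47.3 CPM in *atring1a,b* and 35.4 and 53.9 CPM in Col-0. *SVP* (AT2G22540), a repressor of flowering, had 24.8 and 21.3 CPM in *clf-29swn-21* against 91.8 and 126 CPM in *atring1a,b*. The log2 fold changes were -2.21 ± 0.29 for *SOC1* (edgeR adjusted p = 0.000835) and -2.24 ± 0.34 for *SVP* (edgeR adjusted p = 0.00167).

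Other flowering regulators with a large difference were *AGL14* and *AGL42*, relatives of *SOC1*, and *MFT*, a member of the FT family that acts in seed germination. *AGL14* had 681 counts over both *clf-29swn-21* libraries and 2 over both *atring1a,b* libraries, a ratio of 399 with an interval of 110 to 3301. *MFT* had 127 and 156 CPM in *clf-29swn-21*, 1.11 and 0.296 CPM in *atring1a,b* and 0 in Col-0 (log2 fold change 7.56 ± 0.72, edgeR adjusted p = 0.00163). *MAF2*, an *FLC* relative, had 49.1 and 77.1 CPM in *clf-29swn-21* and 20.8 and 21.3 CPM in *atring1a,b*, and its call (log2 fold change 1.58 ± 0.36, edgeR adjusted p = 0.0115) was lost without *clf-29swn-21* replicate 2 (adjusted p = 0.0853), without *atring1a,b* replicate 1 (0.0726) and without *atring1a,b* replicate 2 (0.0681). *MAF4*, another *FLC* relative, had 11.9 and 14.5 CPM in *clf-29swn-21*, 18.7 and 21.2 CPM in *atring1a,b* and 3.83 and 6.29 CPM in Col-0, so that both mutants were above Col-0, and the mutants were not called apart (log2 fold change -0.60 ± 0.25, 95% interval -1.15 to -0.04, edgeR adjusted p = 0.103).

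Homeobox and meristem genes were often higher in *clf-29swn-21*. Of 23 members 22 were tested, 8 were called higher and 1 lower, beside 11.1% higher and 11.7% lower over all genes. The median log2 fold change was 1.22. *SHOOT MERISTEMLESS* (*STM*, AT1G62360), which keeps meristem cells undifferentiated, had 45.2 and 60.4 CPM in *clf-29swn-21*, 15.1 and 9.56 CPM in *atring1a,b* and 9.40 and 7.08 CPM in Col-0, with a log2 fold change of 2.09 ± 0.34 (edgeR adjusted p = 0.00218). *KNAT1*, a related homeobox gene, had 90.09 and 95.5 CPM in *clf-29swn-21* and 30.0 and 10.4 CPM in *atring1a,b* (log2 fold change 2.19 ± 0.47, edgeR adjusted p = 0.0088). In both genes *clf-29swn-21* was above *atring1a,b*, and *atring1a,b* was above Col-0 for *STM* in each library. *CLV3*, the peptide signal that limits the stem cell pool, had 0.129 and 0 CPM in *clf-29swn-21* and 3.43 and 0.739 CPM in *atring1a,b* and was called lower (log2 fold change -4.73 ± 1.17, edgeR adjusted p = 0.0161), a call lost without *clf-29swn-21* replicate 2 (adjusted p = 0.0705) and without *atring1a,b* replicate 1 (adjusted p = 0.111). Without 1 library the number of higher members was 6 without *clf-29swn-21* replicate 1, 4 without *clf-29swn-21* replicate 2, 6 without *atring1a,b* replicate 1 and 5 without *atring1a,b* replicate 2.

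Embryo and seed regulators were called higher in *clf-29swn-21* for 11 of the 17 members tested, of 18 in the list, beside 11.1% of all genes. None was called lower, and the median log2 fold change was 3.18. The summed level was 645 and 844 CPM in *clf-29swn-21*, 134 and 42.6 CPM in *atring1a,b* and 26.3 and 46.6 CPM in Col-0. Without *clf-29swn-21* replicate 1, without *clf-29swn-21* replicate 2 or without *atring1a,b* replicate 2, the number of higher members was 6 in each case, and without *atring1a,b* replicate 1 it was 11. *ABI3* (AT3G24650), a B3 domain regulator of maturation, had 203 and 230 CPM in *clf-29swn-21*, 25.8 and 4.49 CPM in *atring1a,b* and 0 in both Col-0 libraries. *ABI4*, an AP2 domain regulator of abscisic acid responses, had 40.5 and 44.7 CPM in *clf-29swn-21*, 2.85 and 1.92 CPM in *atring1a,b* and 0 in Col-0. Both genes had reads in each mutant library and none in Col-0, and the mutants differed by log2 3.83 ± 0.74 for *ABI3* and log2 4.15 ± 0.35 for *ABI4* (edgeR adjusted p = 0.00855 for *ABI3* and 0.00102 for *ABI4*).

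Members of the LEC pathway behaved unequally. *LEC2*, a B3 domain factor, had 158 counts over both *clf-29swn-21* libraries and 2 over both *atring1a,b* libraries, a ratio of 92.6 with an interval of 25.2 to 771. *FUS3* (AT3G26790), a B3 domain factor of the same family, had 20.8 and 19.2 CPM in *clf-29swn-21* and 4.62 and 0.937 CPM in *atring1a,b*. The call of *FUS3* (log2 fold change 2.83 ± 0.71, edgeR adjusted p = 0.0175) was lost without *clf-29swn-21* replicate 1 (adjusted p = 0.067), without *clf-29swn-21* replicate 2 (0.0564) and without *atring1a,b* replicate 2 (0.0619). *LEC1*, a subunit of the NF-Y complex, had 0.582 and 0.856 CPM in *clf-29swn-21* and 1.06 and 0.0493 CPM in *atring1a,b*, and its relative *L1L* had 7.30 and 15.2 CPM in *clf-29swn-21* and 19.2 and 0.246 CPM in *atring1a,b*. For both genes *atring1a,b* replicate 1 was the highest library and replicate 2 the lowest of the mutants, and neither was called (edgeR adjusted p = 0.871 for *LEC1* and 0.921 for *L1L*). The 95% intervals of the log2 fold change, -2.27 to 2.85 for *LEC1* and -2.51 to 2.91 for *L1L*, were too wide to place the mutants in an order. Without *atring1a,b* replicate 1, *L1L* was called higher (edgeR adjusted p = 0.00947).

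*WOX9*, a homeobox gene of the early embryo, had 22.6 and 30.4 CPM in *clf-29swn-21* and 0.264 and 0.148 CPM in *atring1a,b* (log2 fold change 6.92 ± 0.65, edgeR adjusted p = 0.000246). *BABY BOOM* (*BBM*), an AP2 domain factor that can induce embryos on vegetative tissue, had 14.9 and 15.4 CPM in *clf-29swn-21* and 1.58 and 0.0986 CPM in *atring1a,b*. The *atring1a,b* libraries of *BBM* differed by more than 10-fold, and its call (log2 fold change 4.1 ± 1.14, edgeR adjusted p = 0.034) was lost without *clf-29swn-21* replicate 1 (adjusted p = 0.0971), without *clf-29swn-21* replicate 2 (0.0937) and without *atring1a,b* replicate 2 (0.0834). *WOX2*, another homeobox gene of the early embryo, had 7.27 and 14.9 CPM in *clf-29swn-21* and 2.14 and 1.77 CPM in *atring1a,b*, and its call (edgeR adjusted p = 0.0427) was lost without each of the 4 libraries, with an adjusted p of 0.0635 without *clf-29swn-21* replicate 1, 0.208 without *clf-29swn-21* replicate 2, 0.155 without *atring1a,b* replicate 1 and 0.173 without *atring1a,b* replicate 2. *ABI5*, a bZIP factor that acts on LEA genes, had 170 and 259 CPM in *clf-29swn-21*, 3.19 and 3.1 CPM in *atring1a,b* and 0.586 and 13.9 CPM in Col-0. The mutants were far apart at *ABI5*, whereas the Col-0 libraries lay on either side of *atring1a,b*. The call of *ABI5* (log2 fold change 6.09 ± 1.60, edgeR adjusted p = 0.0205) was lost when any 1 of the 4 libraries was left out, with an adjusted p of 0.0502 without *clf-29swn-21* replicate 1, 0.0592 without *clf-29swn-21* replicate 2, 0.116 without *atring1a,b* replicate 1 and 0.115 without *atring1a,b* replicate 2.

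Late embryogenesis abundant proteins gave the widest separation of the mutants among the 19 lists. All 22 members that passed the filter, of 25 in the list, were called higher in *clf-29swn-21*, beside 11.1% of all genes. The median log2 fold change was 7.32. The summed level was 7311 and 13220 CPM in *clf-29swn-21*, 155 and 27.7 CPM in *atring1a,b* and 8.23 and 34.4 CPM in Col-0. Both *clf-29swn-21* libraries were above every library of the other genotypes, and the sum of *atring1a,b* replicate 2 was within the range of Col-0. *RAB18*, given below, was a large part of the sum in *atring1a,b* replicate 2 and in Col-0. By member, the median log2 fold change over Col-0 was 11.9 in *clf-29swn-21* and 4.95 in *atring1a,b*. *EM1* (AT3G51810), a close relative of *EM6*, had 689 and 1518 CPM in *clf-29swn-21* and 6.31 and 0.444 CPM in *atring1a,b*. *RAB18*, a dehydrin induced by abscisic acid, had 676 and 1119 CPM in *clf-29swn-21*, 15.3 and 13.8 CPM in *atring1a,b* and 4.54 and 29.8 CPM in Col-0. The log2 fold changes were 8.31 ± 1.36 for *EM1* (edgeR adjusted p = 0.00314) and 5.94 ± 1.07 for *RAB18* (edgeR adjusted p = 0.00372). In the fit of only the 4 libraries with the replicate number as a block, 8 members were called.

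Seed storage proteins were present in both mutants and nearly absent from Col-0. The summed level of the 13 members was 15200 and 23470 CPM in *clf-29swn-21*, 3225 and 214 CPM in *atring1a,b* and 8.20 and 1.72 CPM in Col-0. All 13 members had *clf-29swn-21* libraries above both *atring1a,b* libraries, beside 36.0% of all genes tested. Only 5 were called higher, beside 11.1% of all genes, and 8 were not called. The median log2 fold change was 3.47. In *atring1a,b*, replicate 1 was above replicate 2 for 13 of 13 members, by a median ratio of 13.4 and a range of 7.81 to 72.5, whereas in *clf-29swn-21* the median ratio of replicate 1 to replicate 2 was 0.678. With 1 library left out, 1 member was called without *clf-29swn-21* replicate 1, 0 without *clf-29swn-21* replicate 2, 8 without *atring1a,b* replicate 1 and 1 without *atring1a,b* replicate 2.

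*CRUCIFERIN 1* (*CRU1*, AT5G44120), a 12S globulin, had 4369 and 6239 CPM in *clf-29swn-21*, 770 and 50.9 CPM in *atring1a,b* and 2.28 and 0.0491 CPM in Col-0. The 3 genotypes of *CRU1* did not overlap, and the difference between the mutants did not pass the threshold (log2 fold change 3.69 ± 1.47, 95% interval 0.40 to 6.98, edgeR adjusted p = 0.0911). The 2S albumin gene *SESA5* (AT5G54740) had 684 and 931 CPM in *clf-29swn-21* and 69.6 and 8.04 CPM in *atring1a,b*, against 0.117 and 0.0491 CPM in Col-0 (log2 fold change 4.38 ± 1.2, edgeR adjusted p = 0.0246). The call of *SESA5* was lost without *clf-29swn-21* replicate 1 (adjusted p = 0.0598), without *clf-29swn-21* replicate 2 (0.0726) and without *atring1a,b* replicate 2 (0.102). Reads of the near-identical 2S albumin genes may be shared between them, so counts of single *SESA* genes are uncertain.

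Oil body and oil synthesis genes were also higher in *clf-29swn-21* than in *atring1a,b*. Of 16 members 15 were tested, 11 were called higher, beside 11.1% of all genes, and none lower. The median log2 fold change was 3.58. The summed level was 4169 and 5899 CPM in *clf-29swn-21*, 686 and 100.1 CPM in *atring1a,b* and 106 and 180 CPM in Col-0. The sum of *atring1a,b* replicate 1 was above both Col-0 libraries and that of replicate 2 was below both. This order of the sums does not hold for each member, as *SUS3* and *OLEO2* below show. By member, the median log2 fold change over Col-0 was 9.80 in *clf-29swn-21* and 5.79 in *atring1a,b*. *SUS3* (AT4G02280), a sucrose synthase of maturing seeds, had 363 and 430 CPM in *clf-29swn-21*, 15.8 and 6.80 CPM in *atring1a,b* and 3.31 and 5.36 CPM in Col-0 (log2 fold change 5.12 ± 0.44, edgeR adjusted p = 0.000174). *OLEO2*, an oleosin that coats oil bodies, had 1073 and 1446 CPM in *clf-29swn-21*, 110 and 9.86 CPM in *atring1a,b* and 0.117 and 0 CPM in Col-0 (log2 fold change 4.38 ± 1.24, edgeR adjusted p = 0.0313). Its call was lost without *clf-29swn-21* replicate 1 (adjusted p = 0.0747), without *clf-29swn-21* replicate 2 (0.0882) and without *atring1a,b* replicate 2 (0.0959). The number of higher members of the list was 5 without *clf-29swn-21* replicate 1, 4 without *clf-29swn-21* replicate 2, 13 without *atring1a,b* replicate 1 and 8 without *atring1a,b* replicate 2.

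**Figure D3:**
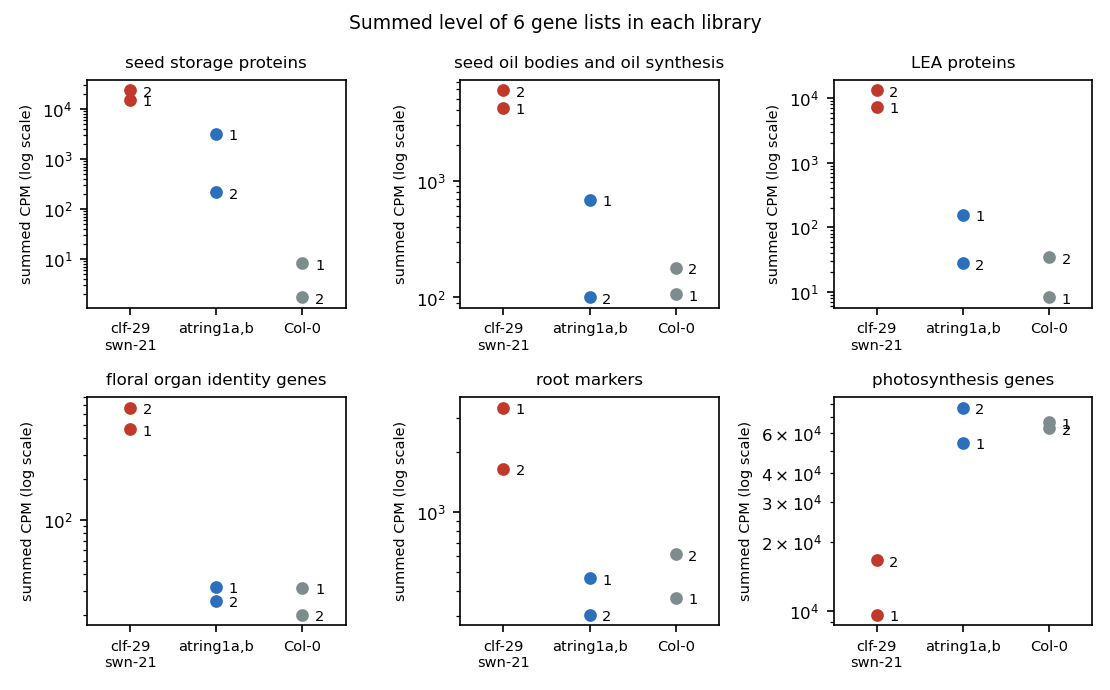
Summed CPM of the members of 6 gene lists on a logarithmic vertical axis, 1 panel per list and 1 point per library of clf-29swn-21, atring1a,b and Col-0, with the replicate number beside each point. Seed storage proteins reached 15200 and 23470 CPM in clf-29swn-21 and 3225 and 214 CPM in atring1a,b, and photosynthesis genes 9642 and 16640 CPM in clf-29swn-21 and 54380 and 77300 CPM in atring1a,b.

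The promoters of these seed genes carry known elements, and 4 promoters are shown. *EM6* is the LEA member among the 10 largest increases, and AT3G17520 is the LEA member with the most counts in *clf-29swn-21*. *CRU1* is the storage protein with the most counts there, and *RCA* is the photosynthesis gene with the most counts in *atring1a,b*. Each promoter is the 250 bases before the annotated gene start, read from the RefSeq TAIR10.1 genome on the strand of the gene. Capitals mark matches on either strand to the RY repeat (CATGCA), which B3 domain factors bind, to the core of the abscisic acid response element, or ABRE (ACGTG), which bZIP factors bind, and to the I-box (GATAAG) of light-regulated genes. Matches of ACGTG on opposite strands overlap within CACGTG and count separately.
*EM6*, chr2:16780369-16780618, - strand: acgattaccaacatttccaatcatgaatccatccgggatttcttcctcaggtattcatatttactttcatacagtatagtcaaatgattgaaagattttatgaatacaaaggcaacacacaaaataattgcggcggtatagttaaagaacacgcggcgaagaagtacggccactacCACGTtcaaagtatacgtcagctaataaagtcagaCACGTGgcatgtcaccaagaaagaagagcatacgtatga
AT3G17520, chr3:6000448-6000697, - strand: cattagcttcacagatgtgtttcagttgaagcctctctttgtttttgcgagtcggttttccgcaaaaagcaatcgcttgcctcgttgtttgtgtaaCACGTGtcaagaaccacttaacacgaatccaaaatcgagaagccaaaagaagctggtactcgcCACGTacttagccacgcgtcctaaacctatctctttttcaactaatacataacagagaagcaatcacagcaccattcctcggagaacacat
*CRU1*, chr5:17758337-17758586, - strand: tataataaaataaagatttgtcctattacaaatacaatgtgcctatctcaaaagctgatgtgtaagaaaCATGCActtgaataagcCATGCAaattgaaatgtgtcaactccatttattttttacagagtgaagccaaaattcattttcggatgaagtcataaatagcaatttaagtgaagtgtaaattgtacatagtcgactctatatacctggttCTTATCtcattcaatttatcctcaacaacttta
*RCA*, chr2:16573693-16573942, - strand: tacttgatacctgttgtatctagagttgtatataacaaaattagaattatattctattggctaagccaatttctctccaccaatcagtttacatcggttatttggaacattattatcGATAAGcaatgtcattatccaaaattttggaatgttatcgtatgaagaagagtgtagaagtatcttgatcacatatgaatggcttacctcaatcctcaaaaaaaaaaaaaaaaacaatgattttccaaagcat

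The *EM6* and AT3G17520 promoters held 3 matches to the ABRE core each, the *CRU1* promoter held 2 matches to the RY repeat and 1 to the I-box, and the *RCA* promoter held 1 match to the I-box. Over the lists, the RY repeat was found in 11 of 13 storage protein promoters (84.6%), 12 of 15 oil promoters (80%) and 6 of 22 LEA promoters (27.3%), beside 8.07% of the 22034 promoters of all genes tested. The ABRE core was found in 20 of 22 LEA promoters (90.9%), 9 of 13 storage protein promoters (69.2%) and 9 of 15 oil promoters (60%), beside 23.9% of all. In the other lists the ABRE core ranged from 0% of *YUCCA* to 64.3% of clock gene promoters. The RY repeat ranged there from 0% of flowering time to 25% of heat shock gene promoters, the latter near the LEA share. The I-box was found in 11 of 46 photosynthesis promoters (23.9%), beside 12.4% of all, and other lists reached similar or higher shares, such as 23.1% of storage protein and 40% of defence gene promoters. Over all called genes the shares were closer to the background: the RY repeat was in 12.7% of the higher and 8.76% of the lower genes, the ABRE core in 29.9% of the higher and 24% of the lower genes, and the I-box in 13.4% of the higher and 15.1% of the lower genes. These matches are letters in the sequence, and binding was not measured.

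**Figure D4:**
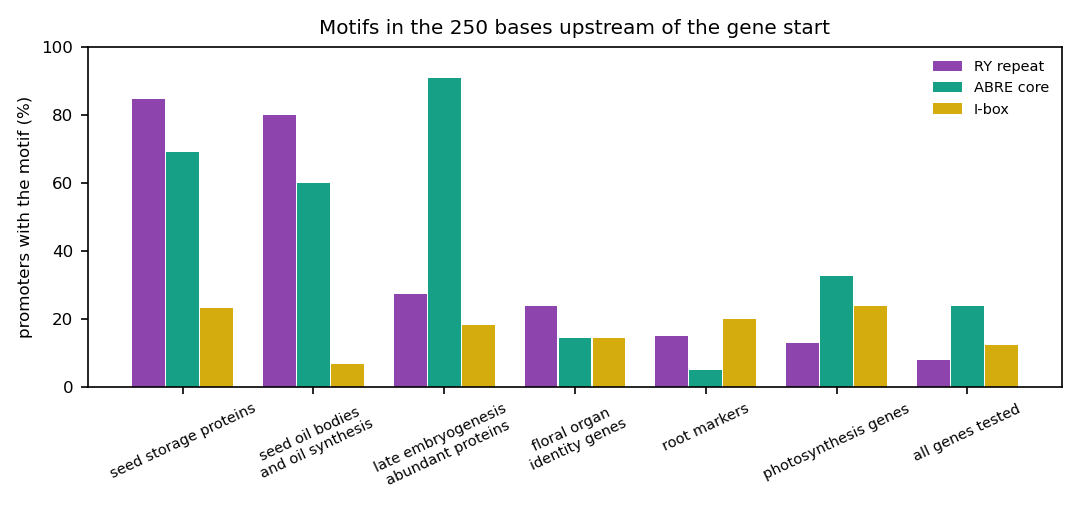
Percent of promoters with at least 1 match to the RY repeat, the ABRE core or the I-box in the 250 bases upstream of the gene start, on either strand, for 6 gene lists and for all genes tested. The RY bars are highest for storage proteins (84.6%) and oil genes (80%), the ABRE bar for LEA proteins (90.9%), and the bars of all genes stand at 8.07%, 23.9% and 12.4%.

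All 46 photosynthesis genes were tested and called lower in *clf-29swn-21*, beside 11.7% of all genes. Their log2 fold changes were -3.73 to -1.40, with a median of -2.57. The summed level was 9642 and 16640 CPM in *clf-29swn-21*, 54380 and 77300 CPM in *atring1a,b* and 66620 and 62680 CPM in Col-0. Each *clf-29swn-21* library was below every library of the other genotypes, and the *atring1a,b* libraries lay on either side of Col-0. *RCA* (AT2G39730), which activates Rubisco, had 348 and 727 CPM in *clf-29swn-21*, 3553 and 3873 CPM in *atring1a,b* and 4350 and 2130 CPM in Col-0 (log2 fold change -2.79 ± 0.45, edgeR adjusted p = 0.00221). *PETE1*, one of the plastocyanin genes, had 26.7 and 36.2 CPM in *clf-29swn-21*, 184 and 249 CPM in *atring1a,b* and 247 and 198 CPM in Col-0 (log2 fold change -2.79 ± 0.23, edgeR adjusted p = 0.000152). At the ends of the range were *CA1*, a carbonic anhydrase of the chloroplast, with 29.1 and 213 CPM in *clf-29swn-21* against 1333 and 1885 CPM in *atring1a,b*, and *RBCS1A*, a small subunit of Rubisco, with 789 and 1098 CPM in *clf-29swn-21* against 2002 and 2979 CPM in *atring1a,b*. Between 42 and 46 members were called lower when 1 library was left out, and reads of near-identical *LHCB1* and *RBCS* copies may be shared.

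Root markers were higher in *clf-29swn-21*. Of the 29 members 20 were tested, 11 were called higher, beside 11.1% of all genes, and none lower. The median log2 fold change was 5.0, or 3.87 with genes at 0 in *atring1a,b* placed at their bound. The summed level was 3366 and 1656 CPM in *clf-29swn-21*, 463 and 304 CPM in *atring1a,b* and 368 and 613 CPM in Col-0, and 10 of the 29 markers had 0 counts in both *atring1a,b* libraries. *SOMBRERO* (*SMB*, AT1G79580), which defines the root cap, had 12.1 and 9.58 CPM in *clf-29swn-21* and 0 in both libraries of *atring1a,b* and of Col-0, and was at least 216-fold higher. *AGL17*, a MADS-box gene of the root, had 644 counts over both *clf-29swn-21* libraries and 3 over both *atring1a,b* libraries, a ratio of 251 with an interval of 85.7 to 1223. *PYK10*, a root beta-glucosidase, had 3108 and 1555 CPM in *clf-29swn-21*, 456 and 299 CPM in *atring1a,b* and 361 and 605 CPM in Col-0 (log2 fold change 2.63 ± 0.44, edgeR adjusted p = 0.00261).

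The *clf-29swn-21* libraries were not equal in these markers, since replicate 1 exceeded replicate 2 by more than 2-fold for 23 of the 29. *CASP1*, which defines the Casparian strip domain of the endodermis, had 14 CPM in *clf-29swn-21* replicate 1, 0.696 CPM in replicate 2 and 0.660 and 0.296 CPM in *atring1a,b*. Without *clf-29swn-21* replicate 1 the adjusted p of *CASP1* was 0.776, without *atring1a,b* replicate 1 it was 0.135 and without *atring1a,b* replicate 2 it was 0.193. The number of root markers called higher was 7 without *clf-29swn-21* replicate 1, 18 without *clf-29swn-21* replicate 2, 7 without *atring1a,b* replicate 1 and 7 without *atring1a,b* replicate 2. The higher root markers and the lower photosynthesis genes moved with the same contrast in which whole plants on medium were set against soil-grown seedlings, and their part in the other differences between the mutants was not tested.

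Genes of vegetative identity other than these showed smaller list medians. Of 14 callus and regeneration genes 12 were tested and 4 were called higher, beside 11.1% of all genes. The median log2 fold change was 1.0. *LBD16*, which starts lateral roots and callus, had 17.3 and 30.6 CPM in *clf-29swn-21* and 0.0792 and 0.0986 CPM in *atring1a,b* (log2 fold change 8.03 ± 1.18, edgeR adjusted p = 0.00143), and *AIL5*, a relative of *BBM*, had 145 and 188 CPM in *clf-29swn-21*, 33.5 and 14.6 CPM in *atring1a,b* and 7.2 and 6.54 CPM in Col-0. The number of higher members was 2 without *atring1a,b* replicate 2, 3 without *clf-29swn-21* replicate 1, 3 without *clf-29swn-21* replicate 2 and 4 without *atring1a,b* replicate 1. Of 12 *YUCCA* and related auxin synthesis genes 9 were tested, with a median of -1.58. Among these 9, 1 was called higher and 3 lower, beside 11.1% higher and 11.7% lower over all genes. The 1 higher call was near the share of all genes and did not hold in each fit with 1 library left out. *YUC2* had 0.679 and 0.321 CPM in *clf-29swn-21*, 5.75 and 3.45 CPM in *atring1a,b* and 8.84 and 11.5 CPM in Col-0 (log2 fold change -3.15 ± 0.42, edgeR adjusted p = 0.000903), and *TAA1*, which makes the substrate of the YUCCA enzymes, had 12.7 and 10.9 CPM in *clf-29swn-21*, 34.7 and 40.6 CPM in *atring1a,b* and 17.2 and 11 CPM in Col-0.

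Polycomb genes outside the mutated loci were mostly at similar counts. Of 25 members 24 were tested, and 3 were called higher and 2 lower, near the 11.1% and 11.7% of all genes. Of those 5 genes, 4 are the mutated genes. The remaining one was *EMF1* (AT5G11530), a plant-specific partner of both complexes, with 160 and 157 CPM in *clf-29swn-21*, 29.5 and 21.2 CPM in *atring1a,b* and 38.6 and 45.6 CPM in Col-0. The *EMF1* libraries of *clf-29swn-21* were above Col-0 and those of *atring1a,b* below it, and the log2 fold change between the mutants was 2.64 ± 0.19 (edgeR adjusted p = 0.000101). *VIN3*, a PHD finger partner of PRC2 that is induced by cold, had 4.33 and 4.55 CPM in *clf-29swn-21*, 4.51 and 4.49 CPM in *atring1a,b* and 0.0293 and 0.0983 CPM in Col-0. All 4 mutant libraries of *VIN3* were above Col-0, and the log2 fold change between the mutants was -0.02 ± 0.61 with a 95% interval of -1.41 to 1.37. *BMI1C*, a RING finger protein of PRC1, had 0.485 and 1.5 CPM in *clf-29swn-21*, 4.09 and 1.33 CPM in *atring1a,b* and 0.0293 and 0 CPM in Col-0, and the mutants overlapped (95% interval -3.53 to 0.56).

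The positions of H3K27me3 in Col-0 and in *atring1a,b* seedlings were compared with the calls. The deposited peak lists were called by the authors on each library, no list of *clf-29swn-21* was used here, and a gene was counted as marked where a peak covered at least 1 bp of its body or of the 1000 bp upstream. In the first Col-0 list, 999 of 2443 genes called higher carried a peak (40.9%, 95% Wilson interval 39% to 42.9%), beside 510 of 2580 genes called lower (19.8%, 18.3% to 21.3%), 17.9% of genes not called and 20.7% of all genes tested. The share of the higher genes was above the others in each of the 4 peak lists, while the level of all shares differed between lists, from 9.92% of all genes in the second *atring1a,b* list to 34% in the first.

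**Figure D5:**
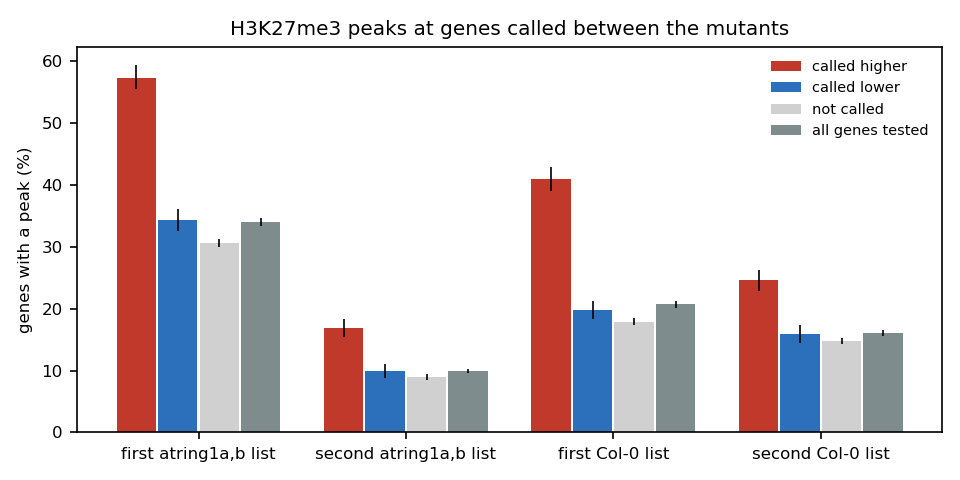
Percent of genes with an H3K27me3 peak in the gene body or the 1000 bp upstream for genes called higher in clf-29swn-21, called lower, not called and all genes tested, in 2 peak lists of atring1a,b and 2 of Col-0, with 95% Wilson intervals as error bars. The genes called higher have the tallest bar in each list, from 16.8% in the second atring1a,b list to 57.3% in the first.

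Lists differed in how many members were marked in Col-0. A peak was present at 20 of 21 floral organ identity genes, 12 of 13 storage protein genes, 18 of 22 LEA genes, 16 of 20 root markers, 10 of 17 embryo regulators and 9 of 15 oil genes, against 0 of 46 photosynthesis genes, 2 of 22 cell cycle genes and 1 of 14 clock genes. All 11 root markers called higher were marked. At *AP3* (chr3:20119140-20121314, - strand) the Col-0 peak spanned chr3:20118521-20121440 and the *atring1a,b* peak chr3:20117870-20121763, so the whole gene was covered in both. At *EM6* (chr2:16779552-16780368, - strand) the Col-0 peak spanned chr2:16779338-16782062 and the *atring1a,b* peak chr2:16779053-16785180. *CRU1* (chr5:17756238-17758336, - strand) was covered by a Col-0 peak at chr5:17756152-17758626 and by an *atring1a,b* peak at chr5:17755816-17758900. *AG* (chr4:10382856-10388539, + strand) had no peak in the first Col-0 list and one at chr4:10378239-10389607 in the first *atring1a,b* list, and *SVP*, called lower, had none in either. A listed peak gives the position of the mark, and the lists were called separately on each library, so the wider *atring1a,b* intervals were not read as more H3K27me3.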

How the data were processed

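RNA-seq counts and H3K27me3 peaks of *Arabidopsis* seedlings were analysed. The deposited gene counts were made by the authors from reads aligned to TAIR10 and counted with HTSeq, per the labels, and are not normalised, and tool versions and strand settings are not given in the sources used here. Reads on no gene or on several genes, 2.66% to 3.43% of each library, were left out. The deposited peak lists hold intervals with a score that the authors' peak caller wrote for each library. A table of the authors' own fold changes and p-values was not used.

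Counts of 14 libraries in 7 groups were fitted in 1 model with edgeR 4.0.16, and 22060 of 33602 genes were tested. The fit used R 4.3.3, the trimmed mean of M values, filterByExpr and the robust quasi-likelihood test, with 7 residual degrees of freedom. The 2 libraries of the *LHP1* mutant group came from 2 different mutant lines of that gene. Any difference between these lines therefore entered the spread shared by all groups. P-values were adjusted over all genes tested by Benjamini-Hochberg. DESeq2 1.42.0, other scaling, no filter, the 4 libraries alone, replicate blocks and leaving out each library were tried as alternatives. With 2 libraries against 2, an exact permutation test cannot give a two-sided p under 0.33, so none was used. The correlation of the replicate differences of the mutants over all genes was 0.068, and the main fit had no block. It was 0.268 between *atring1a,b* and Col-0, and the contrasts with Col-0 were fitted without a block. A correlation over all genes does not show whether single genes had a replicate effect. On simulated data of this comparison (21696 genes, 200 changed), the adjusted rule recovered 27% of genes changed by log2 1.5. It recovered 73% of those changed by log2 3 and called 3 unchanged genes. These 200 changes are fewer than the 2444 higher and 2581 lower genes called between the mutants. Recovery at that larger share of changed genes was not tested.

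Gene names and positions came from the RefSeq annotation of TAIR10.1, which matched 97.7% of the gene identifiers, and all 658 genes of the build check overlapped it. Members, lists, tests and motifs were chosen with earlier results of these data known. Named genes were the mutated genes, members of the 19 lists, and the 10 largest increases and 10 largest decreases among called genes with groups that did not overlap and a mean of at least 5 CPM over the 4 libraries.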

Additional observations from a re-analysis of the deposited data

How the results depend on the processing

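The number of genes called higher and lower was 2625 and 3038 with DESeq2, 2389 and 2636 with RLE factors, 2340 and 2544 without the filter on low counts and 2273 and 2616 in the fit of only the 4 libraries, beside 2444 and 2581. With a replicate block the counts were 2853 higher and 2936 lower in the fit of 14 libraries and 2357 and 2703 in the fit of 4 libraries. Why calls of single genes were lost under the block was not tested. Fitting the replicate 2 libraries of 4 genotypes as a batch gave 3711 higher and 3814 lower genes, and the cause was not tested. Leaving out 1 library gave 1290 to 1897 higher and 1540 to 2108 lower genes, where fewer samples were fitted, and the higher share of calls was 41.4% without *atring1a,b* replicate 1 and 38.6% without *atring1a,b* replicate 2. Of the main calls, 1 changed sign (without *clf-29swn-21* replicate 1), and none was called in the opposite direction under any of these alternatives. No named gene reversed. Of 208 named genes, 10 were called no longer with DESeq2, 34 to 50 with 1 library left out, and, of 207 tested there, 19 in the fit of 4 libraries and 39 in that fit with the replicate block. In the LEA, storage, oil, embryo, root and callus lists, which had no member called lower, 0 members were lower at an unadjusted p under 0.05 with the same fold change, and DESeq2 called 0 lower. In the heat shock list, also with no lower call, 1 member was lower at an unadjusted p and 1 was called lower by DESeq2. The number of storage proteins called higher ranged from 0 in the fit of 4 libraries with a replicate block to 13 with the term for the replicate 2 libraries of 4 genotypes. The share of genes called higher, called lower and tested with a Col-0 H3K27me3 peak was 24.6%, 15.9% and 16% in the second Col-0 list, 35%, 14.5% and 14.2% for gene bodies alone, 25.4%, 10.7% and 12.3% for the peaks with a score above the median, and 28.8%, 10.9% and 10.6% where at least 50% of the body was covered, and the order of higher above lower was the same in each. For a gene with 0 counts in both libraries of a genotype, depth allowed up to 3 counts over the 2 libraries together, for counting error only.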

Other observations

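The counts of further lists stand beside 11.1% of all genes called higher and 11.7% called lower. Of 26 nitrate, phosphate and iron response genes 23 were tested, 6 were called higher and 1 lower, with a median log2 fold change of 1.48. *PHT1;1*, a phosphate transporter of the root, had 41.9 and 4.71 CPM in *clf-29swn-21*, 0.158 and 0.789 CPM in *atring1a,b* and 0.351 and 0.540 CPM in Col-0, and *PAP17*, an acid phosphatase induced by low phosphate, had 78.3 and 81.8 CPM in *clf-29swn-21* and 8.03 and 20.5 CPM in *atring1a,b*. *PAP17* was even across the *clf-29swn-21* libraries and *PHT1;1* was not. *SQD2*, which makes the sulfolipid that replaces phospholipids under phosphate limitation, was called lower, with 19.7 and 29.2 CPM in *clf-29swn-21* against 61.9 and 77.1 CPM in *atring1a,b*. The number of higher members was 2 without *clf-29swn-21* replicate 1, 4 without *clf-29swn-21* replicate 2, 1 without *atring1a,b* replicate 1 and 7 without *atring1a,b* replicate 2, and *PAP17* (adjusted p = 0.0569 without *atring1a,b* replicate 1) and *SQD2* (adjusted p = 0.0535 without *clf-29swn-21* replicate 1) were among the calls lost. By the methods of the study, growth medium and harvested organs both differed between these mutants, and their part was not tested.

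Of 25 defence genes, all tested, 1 was called higher and 4 lower, with a median log2 fold change of -0.55, and 2 were called lower without *clf-29swn-21* replicate 1. *EDS1*, a hub of salicylic acid defence, had 8.37 and 4.66 CPM in *clf-29swn-21*, 41.4 and 34.7 CPM in *atring1a,b* and 41.7 and 36.6 CPM in Col-0 (log2 fold change -2.54 ± 0.39, edgeR adjusted p = 0.00164). *PR3*, a basic chitinase, was the higher one, with 203 and 162 CPM in *clf-29swn-21*, 3.35 and 3.80 CPM in *atring1a,b* and 0.644 and 0.884 CPM in Col-0. In *atring1a,b* the ratio of replicate 1 to replicate 2 over the defence genes had a median of 0.214, the opposite direction to its seed storage genes. Of 17 flavonoid and anthocyanin genes 12 were tested, with 2 called higher and 2 lower: *F3'H*, a hydroxylase of the pathway, had 197 and 212 CPM in *clf-29swn-21* and 13.2 and 12.9 CPM in *atring1a,b*, while the activator *PAP1* had 0.679 and 0.856 CPM in *clf-29swn-21* and 8.00 and 16.3 CPM in *atring1a,b*. The list median was -2.68, and neither lower call, of *PAP1* or *TT8*, was held by every fit with 1 library left out: without *clf-29swn-21* replicate 1 the adjusted p was 0.148 for *PAP1* and 0.0749 for *TT8*, and without *clf-29swn-21* replicate 2 it was 0.107 for *PAP1* and 0.101 for *TT8*.

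Among 15 endosperm and type I MADS genes 6 were tested, 2 were called higher (1 without any 1 of the 4 libraries) and 1 lower, with a median log2 fold change of -0.24. *FWA*, an imprinted homeobox gene of the endosperm, had 242 counts over both *clf-29swn-21* libraries and 1 over both *atring1a,b* libraries, a ratio of 284 with an interval of 50.4 to 11244. *PHE2*, a type I MADS-box gene, had 0 counts in *clf-29swn-21* and 69 counts over both *atring1a,b* libraries, and was at least 19.6-fold higher in *atring1a,b*, with its call lost without *clf-29swn-21* replicate 1 (edgeR adjusted p = 0.0577). Of 10 heat shock genes 8 were tested and 2 were called higher, or 1 without any 1 of the 4 libraries, with a median of 1.48, and *HSP70B* had 22.2 and 22.9 CPM in *clf-29swn-21* and 8.42 and 7.89 CPM in *atring1a,b*. Of 14 clock genes 1 was called lower, *CDF1*, with a list median of -0.49. The call of *CDF1* (3.1 and 5.94 CPM in *clf-29swn-21*, 48.2 and 26.2 CPM in *atring1a,b*) was lost without *atring1a,b* replicate 1 (adjusted p = 0.112), without *clf-29swn-21* replicate 1 (0.167) and without *clf-29swn-21* replicate 2 (0.076). None of the 22 cell cycle genes was called by edgeR or by DESeq2, and 0 passed at an unadjusted p under 0.05 with the same fold change, with a median of -0.13.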
